A study of Mus musculus with 12 samples.

Results

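The genes described here are 8 regulators of transcription that drive osteoclast formation, namely Nfatc1, Mitf, Tfec, Fosl2, Fosl1, Jund, Myc and Ppargc1b. They were taken by symbol from the 57010 genes of a table of read counts. Each symbol matched 1 row, and all 8 were among the 15425 genes that passed the filter on low counts and were tested.

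The libraries came from marrow of LSD1WT and LSD1cKO female mice, aged 2 months by the labels and 3 months by the sequencing methods of the study. LSD1, encoded by Kdm1a, is a histone demethylase, and the cKO mice carry floxed LSD1 deleted by LysM-Cre, a recombinase driven by the lysozyme gene of myeloid cells. Whether LSD1WT mice carried LysM-Cre is not given in the sources used here. Marrow came from the mandible or the femur of mice that had worn a silk ligature around an upper molar for 7 days, or from the femur of mice with no ligature, and was grown for 2 days with M-CSF and RANKL into preosteoclasts. The 2 genotypes and 3 cultures gave 6 groups of 2 libraries, 12 in all, from 9 mice (5 LSD1WT and 4 LSD1cKO), and 1 LSD1WT mouse and 2 LSD1cKO mice were sampled at both the mandible and the ligated femur.

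Osteoclasts form by fusion of myeloid precursors. RANKL acts through RANK to raise AP-1 factors and calcium signals, and these switch on Nfatc1, the factor that turns on genes of fusion and bone resorption. Fosl2, Fosl1 and Jund encode subunits of the dimeric AP-1 factors, Mitf and Tfec encode related factors of the MiT/TFE family that act with NFATc1 on genes of bone resorption, Ppargc1b encodes PGC-1beta, a coactivator for mitochondrial genes, and Myc encodes a factor for cell growth and metabolism.

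Library totals ran from 21375805 to 32526751 reads, and a floor of 3 reads equalled 0.0927 to 0.154 CPM, that is, read counts scaled to library size. Kdm1a was at 61.2 to 71.3 CPM in LSD1WT and 15.6 to 24.3 CPM in LSD1cKO, so each library matched its genotype. Lyz2, whose promoter drives the Cre, was at 1232 to 7579 CPM in all libraries except femur LSD1WT replicate 2, which had 35330 CPM with and 13829 CPM without a ligature. The femur LSD1WT replicate 2 libraries, ligated and unligated, stood apart. Their 17 osteoclast markers summed to 1034 and 1008 CPM, against 13965 to 44711 CPM in the other 10 libraries, and their 8 macrophage markers summed to 44761 and 21685 CPM, against 2927 to 10470 CPM. Markers of 8 other cell types were low, with sums of at most 304 CPM. Mandible LSD1WT replicate 3 has a title that says mandible and a library name that says femur, and was kept as mandible. By the labels the 2 libraries of a group came from different mice, and each test below rests on the spread within such pairs. The LSD1WT mandible pair, which holds the library with conflicting names, was the closest. Its median variance over genes was 1.55 times that of counting, against 4.89 to 87.6 times in the other groups. Whether its 2 libraries hold separate material was not tested.

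In the mandible cultures, 5 of the 8 genes had both LSD1cKO libraries below the LSD1WT pair (Nfatc1, Fosl2, Ppargc1b, Mitf and Jund), 2 were higher (Myc and Fosl1), and Tfec overlapped. Such separation of the 2 pairs was common there, with 34.8% of all tested genes lower without overlap, 34.1% higher and 68.9% in either direction, so 7 of 8 is not far from the background. With the model over all 12 libraries, edgeR's quasi-likelihood test called none of the 8 genes at an adjusted p under 0.05 in any of the 10 comparisons made. It called 0% of all genes in the mandible, 0.00648% (Kdm1a alone) in the ligated femur, 0% in the unligated femur and 3.53% over the 3 cultures, and 0% in each comparison of site or ligature and in both interactions. At an unadjusted p under 0.05 it counted 744 genes in the mandible, 763 in the unligated femur, 3051 and 2312 between sites in LSD1WT and LSD1cKO, 118 and 148 for the ligature, and 149 and 53 for the interactions with site and ligature. Without the femur LSD1WT replicate 2 libraries, Nfatc1, Fosl2, Ppargc1b and Mitf passed the test over the 3 cultures as lower in LSD1cKO, where 24.2% of 16008 genes were called and 9.75% were called lower. These 10 libraries leave 1 LSD1WT library in each femur culture, which the model takes to vary like the other groups. The 2 libraries left out stood apart by their low osteoclast markers, so the choice was tied to the outcome. Leaving them out raises the LSD1WT level of genes that follow those markers, so these calls are no independent result.

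**Figure D1:**
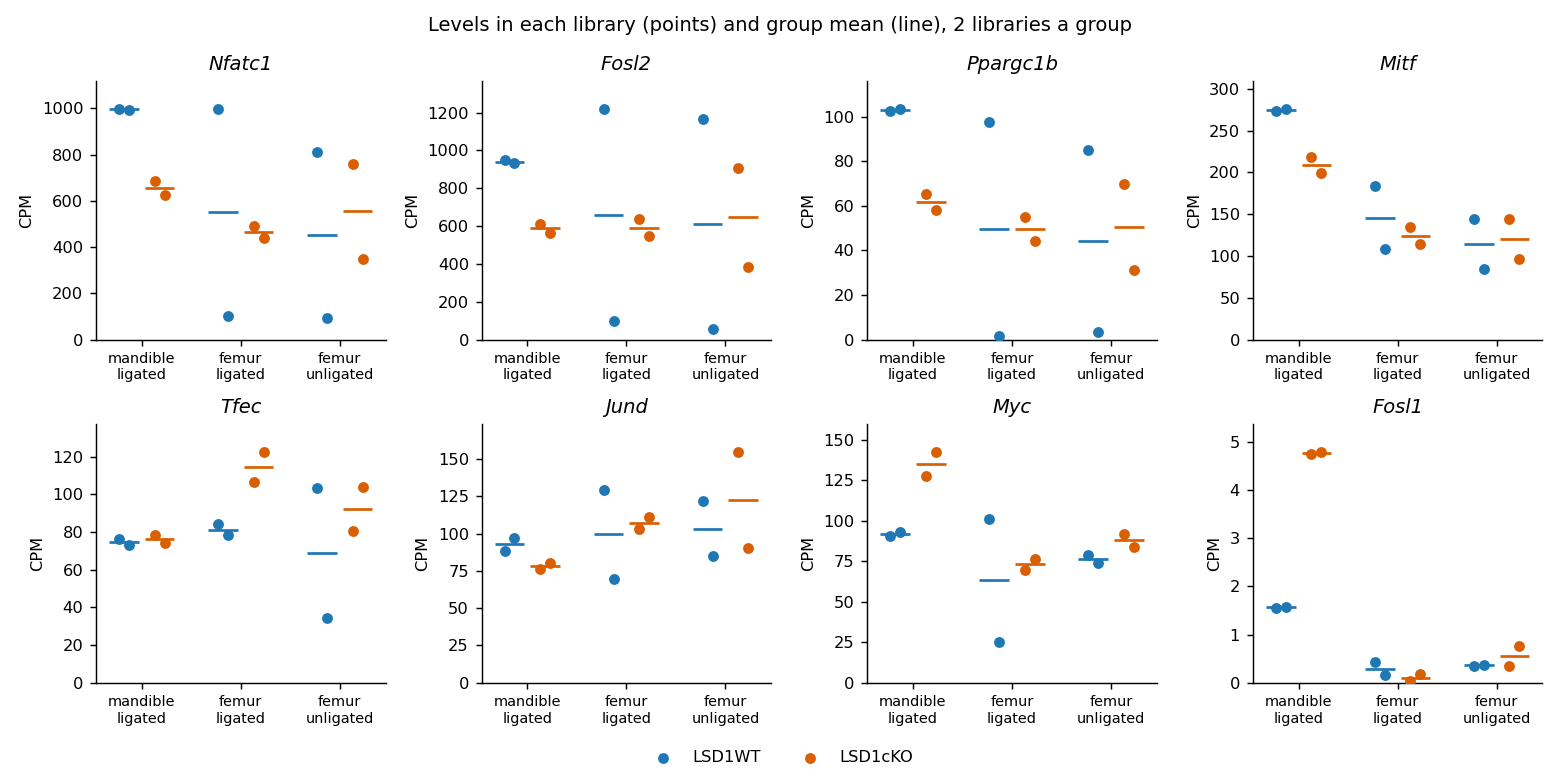
Level of each of the 8 genes in CPM (vertical axes from 0) in the 3 cultures, with LSD1WT in blue and LSD1cKO in orange, each point 1 library and each line the mean of 2. In the mandible the genotypes separate for every gene but Tfec, and in the femur the lower LSD1WT point of Nfatc1, Fosl2 and Ppargc1b is replicate 2.

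The plot of levels by library shows how much of the spread lay between the 2 LSD1WT femur libraries of a culture. Compared per kilobase of exon, the LSD1WT mandible libraries had Nfatc1 at a mean of 133 CPM per kb, followed by Fosl2 at 97.1, Jund at 55.6, Mitf at 44.3, Myc at 33.8, Ppargc1b at 25.8, Tfec at 13.4 and Fosl1 at 0.769 CPM per kb. In the LSD1cKO mandible the same scale gave 87.6 for Nfatc1, 60.9 for Fosl2, 49.7 for Myc, 47.0 for Jund, 33.6 for Mitf, 15.4 for Ppargc1b, 13.7 for Tfec and 2.34 CPM per kb for Fosl1. Nfatc1 and Fosl2 led in both genotypes, and Fosl1 was lowest in both. In ligated femur LSD1WT replicate 2 Jund led at 41.9 CPM per kb, while Nfatc1 stood at 13.6 and Ppargc1b at 0.373 CPM per kb.

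Nfatc1 (ENSMUSG00000033016), the calcium-dependent factor that osteoclast formation requires, was at 995 and 995 CPM in the LSD1WT mandible libraries and at 684 and 624 CPM in LSD1cKO. Ligated femur cultures gave 998 and 102 CPM for LSD1WT, compared with 489 and 441 CPM for LSD1cKO. Unligated femur cultures gave 810.2 and 94.2 CPM for LSD1WT, compared with 759 and 349 CPM for LSD1cKO. The 4 LSD1WT libraries rich in osteoclast markers were thus all higher than every LSD1cKO library, and LSD1WT replicate 2 was the lowest in each femur culture. These 4 were set apart by markers that Nfatc1 follows, with a Pearson r of 0.96 over the 12 libraries. Their order is thus no independent result, and the share of all tested genes with it was not counted. The 2 LSD1WT libraries differed 9.82-fold in the ligated and 8.60-fold in the unligated femur, against 1.00-fold in the mandible. The LSD1cKO mandible mean was 1.52-fold lower than LSD1WT, a log2 fold change of -0.61 (SE 1.06, adjusted p = 1 by edgeR over all 12 libraries). Over the 3 cultures the log2 fold change was -0.19 (SE 0.57, adjusted p = 0.920). Without the 2 replicate 2 libraries it was -0.69 (SE 0.19, adjusted p = 0.0240), with -0.57 in the mandible, -1.02 in the ligated and -0.54 in the unligated femur.

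Fosl2 (ENSMUSG00000029135), which encodes the AP-1 subunit Fra-2, followed the same order. Mandible values were 947 and 932 CPM (LSD1WT) and 613 and 566 CPM (LSD1cKO). With a ligature, femur values were 1221 and 95.6 CPM (LSD1WT) and 636 and 548 CPM (LSD1cKO). Without one, they were 1168 and 54.5 CPM (LSD1WT) and 906 and 386 CPM (LSD1cKO). The LSD1WT libraries of replicate 2 held the 2 lowest values of all 12, and the other LSD1WT libraries held the 4 highest. The limit given for Nfatc1 holds here too, as Fosl2 follows the osteoclast markers with a Pearson r of 0.99. The mandible log2 fold change was -0.67 (SE 1.28, adjusted p = 1), and over the 3 cultures it was -0.25 (SE 0.67, adjusted p = 0.907). Without the 2 libraries Fosl2 fell by 0.79 on the log2 scale over the 3 cultures (SE 0.20, adjusted p = 0.0156), with -0.64, -0.96 and -0.84 in the mandible, ligated femur and unligated femur.

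Ppargc1b (ENSMUSG00000033871) spanned the widest range of the genes above the floor in every library. Its mandible level was 103 and 104 CPM with LSD1WT and 65.1 and 58.0 CPM with LSD1cKO. Ligated femur cultures gave 97.7 and 1.49 CPM for LSD1WT, compared with 54.9 and 44.1 CPM for LSD1cKO. Unligated femur cultures gave 85.0 and 3.27 CPM for LSD1WT, compared with 69.6 and 31.3 CPM for LSD1cKO. The 2 LSD1WT libraries differed 65.7-fold in the ligated and 26.0-fold in the unligated femur, and replicate 2 held 29 and 79 reads of the gene. The mandible log2 fold change was -0.74 (SE 1.55, adjusted p = 1), and the value over the 3 cultures was -0.18 (SE 0.81, adjusted p = 0.947). Leaving out the 2 libraries, the latter was -0.77 (SE 0.18, adjusted p = 0.0122), with -0.71, -0.90 and -0.74 in the 3 cultures in the same order.

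For these 3 genes, LSD1cKO was lower without overlap in each of the 3 cultures once the 2 libraries were left out, as were 16.8% of all tested genes. With all 12 libraries none of the 8 genes kept the genotypes apart in each culture, against 8.37% of all tested genes. The osteoclast marker sum moved with this pattern. In the mandible it was 29430 and 29285 CPM in LSD1WT and 16903 and 16881 CPM in LSD1cKO. In the ligated femur it was 44711 CPM in LSD1WT replicate 1 and 23081 and 20409 CPM in LSD1cKO, and in the unligated femur 41324 CPM in LSD1WT replicate 1 and 32235 and 13965 CPM in LSD1cKO. The part of these marker levels in the genotype differences was not tested, and in bulk RNA fewer osteoclasts and less RNA per osteoclast cannot be told apart. In the mandible the 5 stromal markers also differed, with sums of 40.6 and 41.4 CPM in LSD1WT against 8.55 and 3.15 CPM in LSD1cKO, and their part in the mandible differences was not tested either.

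**Figure D2:**
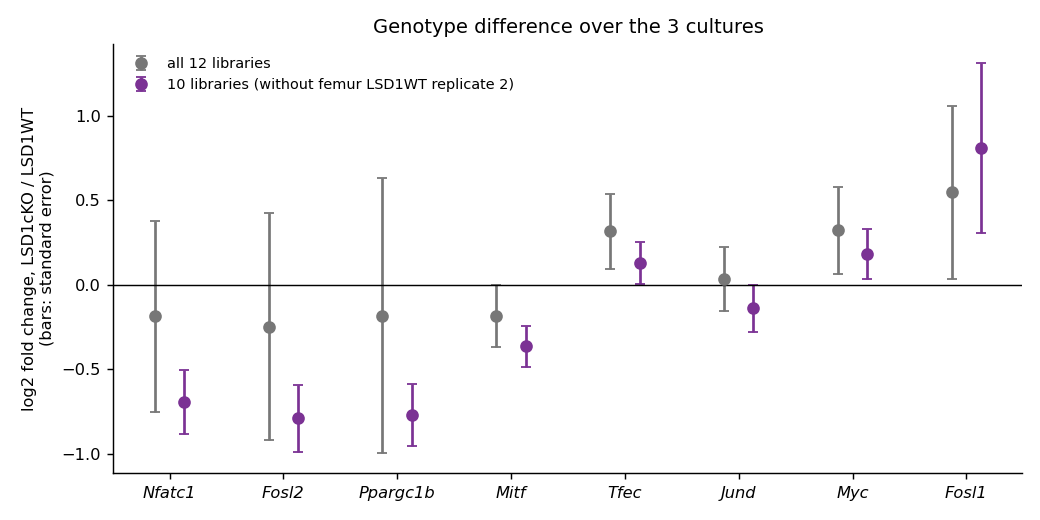
Log2 fold change of LSD1cKO over LSD1WT across the 3 cultures for each gene (points, with standard error bars), from all 12 libraries in grey and from the 10 libraries without femur LSD1WT replicate 2 in purple. For Nfatc1, Fosl2 and Ppargc1b the value moves from between -0.25 and -0.18 to between -0.79 and -0.69, and the bars shorten.

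Mitf (ENSMUSG00000035158), a basic helix-loop-helix factor needed for osteoclast maturation, separated the sites. Mandible values were 273 and 276 CPM (LSD1WT) and 218 and 199 CPM (LSD1cKO). With a ligature, femur values were 183 and 108 CPM (LSD1WT) and 134 and 115 CPM (LSD1cKO). Without one, they were 144.3 and 84.0 CPM (LSD1WT) and 144.4 and 96.3 CPM (LSD1cKO). Every mandible library was higher than every femur library, and the LSD1WT femur pairs differed only 1.69-fold and 1.72-fold. The share of all tested genes with this separation was not counted. The mandible libraries all came from ligated mice, whereas the femur libraries came from ligated and unligated mice. The mandible log2 fold change of LSD1cKO was -0.40 (SE 0.34, adjusted p = 1), and over the 3 cultures it was -0.18 (SE 0.19, adjusted p = 0.700). In the 10 libraries without femur LSD1WT replicate 2, Mitf fell by 0.36 on the log2 scale over the 3 cultures (SE 0.12, adjusted p = 0.0499), just inside the threshold.

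Tfec (ENSMUSG00000029553), the MiT/TFE member found mainly in macrophages and osteoclasts, was the one gene with no separation in the mandible, with 76.3 and 73.3 CPM (LSD1WT) and 78.6 and 74.4 CPM (LSD1cKO). Ligated femur cultures gave 84.1 and 78.2 CPM for LSD1WT, compared with 107 and 123 CPM for LSD1cKO, the sole gene of the 8 whose genotypes did not overlap there (34.2% of all tested genes did not overlap, and 14.8% were higher). Unligated femur cultures gave 103 and 34.5 CPM for LSD1WT, compared with 80.4 and 104 CPM for LSD1cKO. The ligated femur difference was 0.50 on the log2 scale (SE 0.42, adjusted p = 0.849), and 0.53 without the 2 libraries (SE 0.19, adjusted p = 0.138). Tfec in ligated LSD1WT replicate 2 was within 1.08-fold of replicate 1, although that library had few osteoclast transcripts.

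Promoter windows were looked up by symbol in RefSeq for build GRCm38.p6, and 3 are shown to let the AP-1 and MiT/TFE members be compared by the motifs of the factors named above. Windows for 4 of the 8 genes were used. Windows on 1 chromosome were left out by a set rule, so a gene missing here need not lack a listed start. The 250 bases before the start are shown for Fosl2, for Tfec and for the third listed start of Mitf, 5′ to 3′ on the gene's strand. The counts do not say which Mitf start was in use. Capitals mark matches on either strand to GGAAA (the NFAT core), TGANTCA (AP-1), TGACGTCA (the cyclic AMP response element) or CACGTG (the E-box that MiT/TFE and MYC factors bind).
Fosl2, chr5:32136222-32136471, plus strand: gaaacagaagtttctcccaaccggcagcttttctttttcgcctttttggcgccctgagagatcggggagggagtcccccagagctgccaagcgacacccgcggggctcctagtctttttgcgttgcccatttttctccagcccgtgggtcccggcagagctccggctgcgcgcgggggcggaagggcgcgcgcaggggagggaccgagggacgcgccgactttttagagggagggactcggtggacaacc
Tfec, chr6:16898442-16898691, minus strand: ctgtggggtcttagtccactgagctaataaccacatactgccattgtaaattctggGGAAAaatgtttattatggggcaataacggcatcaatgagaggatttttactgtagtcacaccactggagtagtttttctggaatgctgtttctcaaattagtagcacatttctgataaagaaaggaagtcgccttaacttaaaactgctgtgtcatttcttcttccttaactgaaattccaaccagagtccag
Mitf, chr6:97991533-97991782, plus strand: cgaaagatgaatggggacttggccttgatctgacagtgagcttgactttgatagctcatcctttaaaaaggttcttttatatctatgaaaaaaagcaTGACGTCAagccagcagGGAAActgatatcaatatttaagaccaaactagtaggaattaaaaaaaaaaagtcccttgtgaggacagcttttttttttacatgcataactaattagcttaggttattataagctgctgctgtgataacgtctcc
The Mitf window holds 1 cyclic AMP response element, from 153 to 146 bases before the start, and 1 GGAAA. This start was chosen for display because it holds the most matches of the 3 listed for Mitf: the first holds none and the second holds 1 GGAAA. Tfec holds 1 GGAAA, and Fosl2 and Jund hold none of the 4 motifs. Over 32851 windows of this length, 55.6% hold GGAAA, 6.75% TGANTCA, 1.55% TGACGTCA and 6.02% CACGTG. These matches describe letters only and are not shown to be used.

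Jund (ENSMUSG00000071076), an AP-1 subunit that pairs with Fos proteins, covered a narrow range. Mandible values were 88.6 and 97.0 CPM (LSD1WT) and 76.4 and 80.3 CPM (LSD1cKO). With a ligature, femur values were 129 and 69.9 CPM (LSD1WT) and 103 and 111 CPM (LSD1cKO). Without one, they were 122 and 84.9 CPM (LSD1WT) and 155 and 90.1 CPM (LSD1cKO). The genotypes separated only in the mandible, where the log2 fold change was -0.24 (SE 0.35, adjusted p = 1). Over the 3 cultures it was 0.04 (SE 0.19, adjusted p = 0.956) with all libraries and -0.14 (SE 0.14, adjusted p = 0.522) without the 2, so neither direction held.

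Fosl1 (ENSMUSG00000024912), which encodes Fra-1, was scarce and was detected mainly in the mandible. It had 38 and 43 reads in LSD1WT and 138 and 155 reads in LSD1cKO in the mandible, or 1.55 and 1.58 CPM against 4.74 and 4.79 CPM. In the ligated femur it had 13 and 3 reads in LSD1WT and 1 and 4 reads in LSD1cKO. In the unligated femur it had 9 and 9 reads in LSD1WT and 10 and 21 reads in LSD1cKO. The LSD1cKO mandible pair was 3.05-fold higher than the LSD1WT pair by summed reads. Within the pairs the libraries differed 1.02-fold in LSD1WT and 1.01-fold in LSD1cKO. The LSD1WT pair holds the library with conflicting names, so that spread is not used as a yardstick. In the mandible 34.1% of all tested genes were higher without overlap. By edgeR over all 12 libraries the log2 fold change of Fosl1 was 1.60 (SE 0.59, unadjusted p = 0.0240, adjusted p = 0.858). Without the 2 femur libraries it was 1.64 (SE 0.41, adjusted p = 0.0655). The ligated femur libraries of LSD1cKO lay at or near the floor, so no genotype fold is given there. Over the 3 cultures the log2 fold change of Fosl1 was 0.55 (SE 0.51, adjusted p = 0.675), and it turned to -0.22 when mandible LSD1WT replicate 3, the library with conflicting names, was counted as femur.

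Myc (ENSMUSG00000022346) had mandible values of 90.5 and 93.1 CPM (LSD1WT) and 128 and 143 CPM (LSD1cKO). Ligated femur cultures gave 101 and 25.4 CPM for LSD1WT, compared with 69.9 and 76.4 CPM for LSD1cKO. Unligated femur cultures gave 78.8 and 74.0 CPM for LSD1WT, compared with 91.9 and 83.9 CPM for LSD1cKO. Myc was higher in LSD1cKO without overlap in the mandible and the unligated femur, where 9.82% of all tested genes were higher in this way and 18.4% separated in either direction. The LSD1WT unligated replicate 2, poor in osteoclast markers, kept the Myc level of its replicate 1 within 1.07-fold, whereas the ligated one was 3.97-fold lower. In the mandible the log2 fold change was 0.56 (SE 0.49, adjusted p = 1), and without the 2 libraries it was 0.59 (SE 0.13, adjusted p = 0.0390), the sole call among the 8 genes there, beside 5.85% of all genes called and 5.13% called higher. Over the 3 cultures it was 0.32 (SE 0.26, adjusted p = 0.609), or 0.18 (SE 0.15, adjusted p = 0.413) without the 2 libraries.

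When the 4 mandible libraries were fitted alone, 7 of the 8 genes passed the test, all but Tfec, with adjusted p from 0.000145 for Fosl2 to 0.0190 for Jund. In that fit 37.7% of 14403 genes passed (19.2% higher and 18.6% lower), and the spread rested on an LSD1WT pair whose variance was 1.55 times that of counting and an LSD1cKO pair at 4.89 times, without the wider femur pairs. The directions were those given above, with Fosl1 and Myc higher and the other 5 lower in LSD1cKO. In the femur alone, without the 2 libraries, none of the 8 genes passed in the ligated (9.35% of genes called) or the unligated culture (2.47%).

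The second question is whether preosteoclasts from the mandible and the femur of ligated mice differ in these factors. Mitf was higher in the mandible, with a log2 difference of 0.91 in LSD1WT (SE 0.35, adjusted p = 0.217) and 0.75 in LSD1cKO (SE 0.35, adjusted p = 0.361). Fosl1 was higher by 2.38 in LSD1WT (SE 0.64, adjusted p = 0.170) and 5.45 in LSD1cKO (SE 0.74, adjusted p = 0.0820). Neither passed with all libraries. The Fosl1 value in LSD1WT was 1.11 (adjusted p = 0.985) with mandible replicate 3, the library with conflicting names, counted as femur, 3.34 (adjusted p = 0.0264) without ligated femur replicate 1 and 1.88 (adjusted p = 0.777) without replicate 2. In LSD1cKO it was 4.71 without ligated femur replicate 1 and 6.77 without replicate 2, with adjusted p of 0.376 and 0.520. By summed reads, Fosl1 was 4.93-fold higher in the LSD1WT mandible (81 against 16 reads, 95% exact interval for counting error 2.86 to 9.03) and 46.3-fold higher in the LSD1cKO mandible (293 against 5 reads, 19.6 to 144). Without the 2 femur libraries, Fosl1 (5.44, SE 0.58, adjusted p = 0.000991), Myc (0.87, SE 0.13, adjusted p = 0.00340) and Mitf (0.73, SE 0.20, adjusted p = 0.0398) passed as higher and Tfec (-0.60, SE 0.16, adjusted p = 0.0309) as lower in the LSD1cKO mandible, beside 21.7% of all genes (10.7% higher and 11.0% lower). In that setting none of the 8 passed in LSD1WT, where 0.900% of genes were called. With the 4 ligated LSD1cKO libraries fitted alone, 6 of the 8 genes passed, all but Fosl2 and Ppargc1b, beside 42.1% of all genes. DESeq2 on all 12 libraries called Fosl1 in LSD1WT (adjusted p = 0.00884, 7.65% of genes called) and in LSD1cKO (adjusted p = 2.3e-08, 5.33% of genes called), and edgeR with no filter on low counts called it in LSD1cKO (adjusted p = 0.000921, 1.21% of genes called). Mitf, Fosl1 and Ppargc1b were higher in the mandible without overlap in both genotypes, and Tfec was lower. Taken singly, such separation was found in LSD1WT for 29.2% of all tested genes as higher and 31.5% as lower, and in LSD1cKO for 35.3% and 35.0%. The share of all tested genes that separated in the same direction in both genotypes was not counted.

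**Figure D3:**
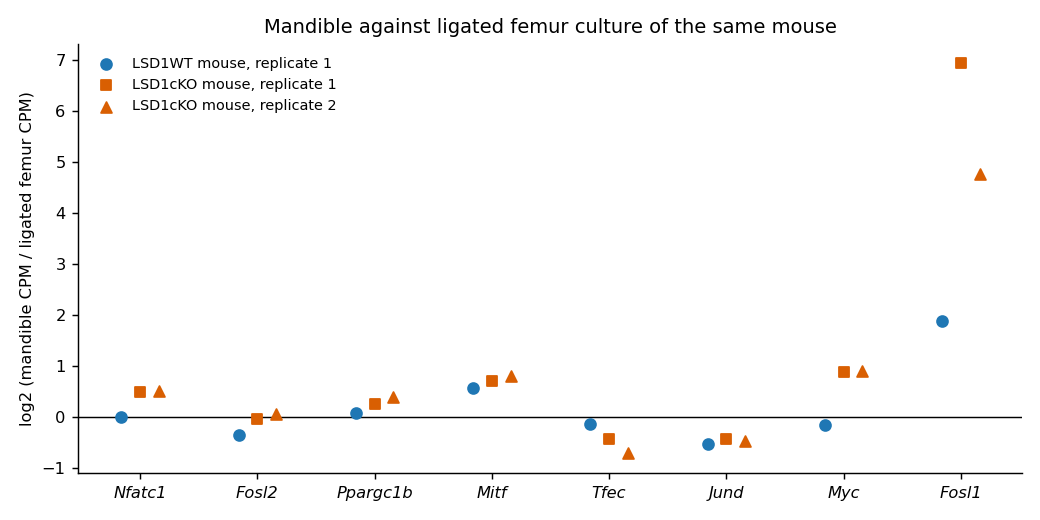
Log2 ratio of the mandible level to the ligated femur level of the same mouse for each gene, for 1 LSD1WT mouse (circles) and 2 LSD1cKO mice (squares and triangles). Mitf, Ppargc1b and Fosl1 lie above 0 in all 3 mice, Tfec and Jund below 0 in all 3, and Fosl1 of LSD1cKO reaches 6.93 on a femur count of 1 read.

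The 3 mice that gave both sites are shown in the plot of same-mouse ratios, and none of them is a replicate 2 LSD1WT mouse. Mitf was 1.49-fold higher in the mandible of the LSD1WT mouse and 1.63-fold and 1.73-fold higher in the LSD1cKO mice. Myc was 0.896 times its femur level in the LSD1WT mouse and 1.83 and 1.87 times in the LSD1cKO mice. Nfatc1 was 0.997 times its femur level in the LSD1WT mouse and 1.40 and 1.41 times in the LSD1cKO mice. Myc and Nfatc1 thus gave ratios near 1 in the single LSD1WT mouse and above 1 in both LSD1cKO mice. The share of all tested genes with this pattern was not counted. With all 12 libraries, edgeR's log2 interaction of genotype and site was 0.35 for Myc and, with the opposite sign, -0.36 for Nfatc1. Neither was called. Without the 2 femur LSD1WT replicate 2 libraries these values were 0.97 and 0.45, with 1 LSD1WT ligated femur library left. A site difference that depends on genotype is thus not shown for either gene. Jund was lower in the mandible of all 3 mice, at 0.686, 0.741 and 0.722 times the femur level, and Tfec was at 0.907, 0.737 and 0.607 times. Of all tested genes, 28.2% were higher and 31.2% lower in the mandible in all 3 mice. With the mouse as a random block in limma, no gene of the 8 was called in either site comparison.

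The third question is whether a ligature in the mouth changes these genes in femur cultures. In LSD1WT the log2 differences between ligated and unligated femur ran from -0.27 for Myc to 0.36 for Mitf, all with an adjusted p of 1 by edgeR. In LSD1cKO they ran from -2.37 for Fosl1 (SE 0.73, unadjusted p = 0.0104, adjusted p = 1.00) to 0.32 for Tfec (SE 0.42, adjusted p = 1.00). The Fosl1 value rests on 1 and 4 reads in the ligated against 10 and 21 reads in the unligated libraries, and ran from -3.69 to -1.62 when 1 library was left out. The standard errors were 1.06 for Nfatc1 and 1.28 for Fosl2, so a 2-fold change of either gene was smaller than its standard error.

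Across the 12 libraries, the level of Fosl2 followed the summed osteoclast markers most closely, with a Pearson r of 0.99 on log2 scales, then Ppargc1b at 0.98 and Nfatc1 at 0.96. The values were 0.64 for Myc, 0.63 for Jund, 0.61 for Tfec, 0.60 for Mitf and 0.20 for Fosl1. The points share libraries and 2 of them lie far below the rest, so these values describe this set of libraries only. Among the members, Nfatc1 and Fosl2 had an r of 0.98 and Nfatc1 and Ppargc1b 0.98, whereas Mitf and Tfec had 0.09 and Mitf and Jund 0.00.

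**Figure D4:**
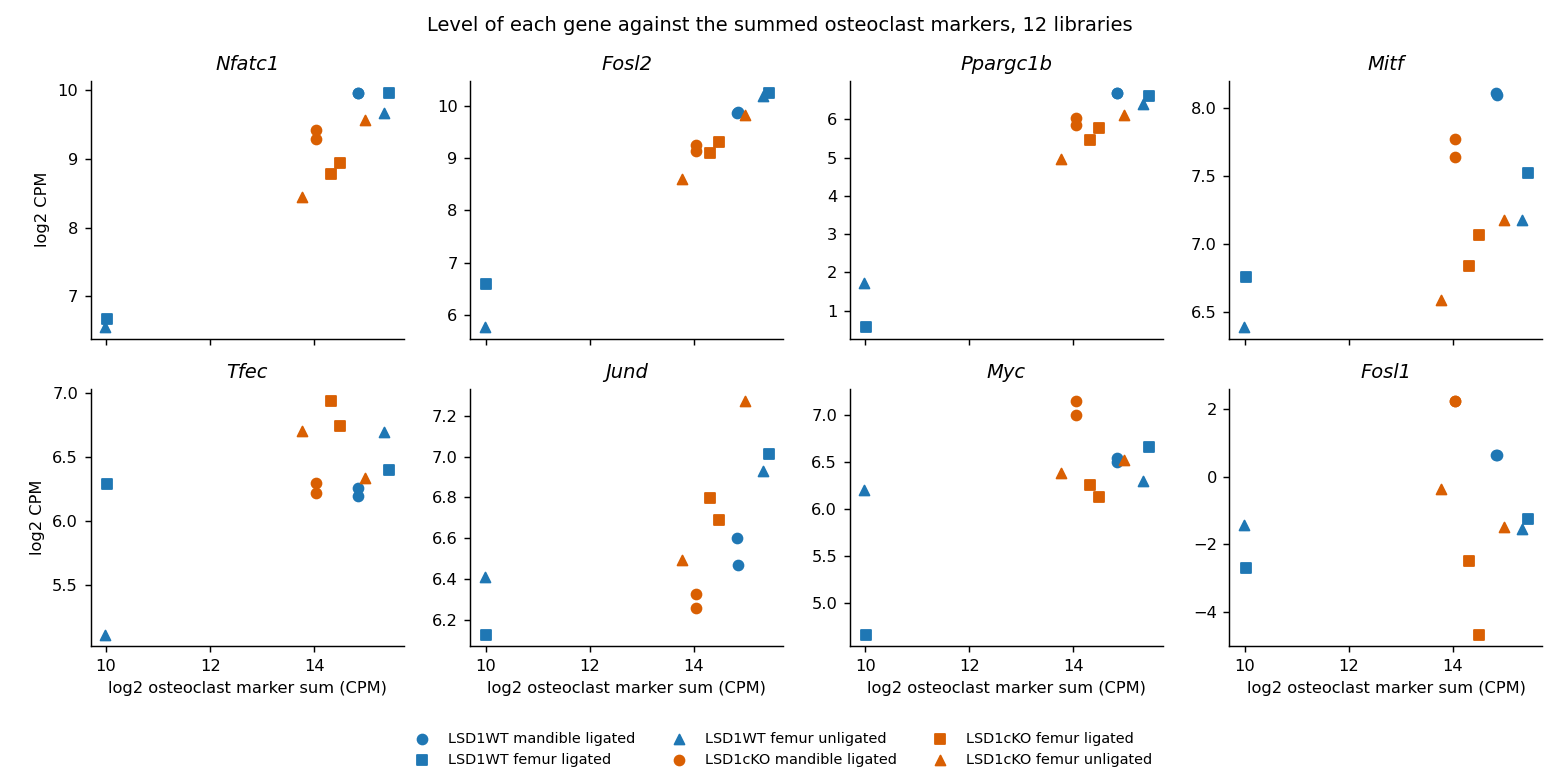
Log2 CPM of each gene against the log2 summed CPM of 17 osteoclast markers in the 12 libraries, with genotype by colour and culture by marker shape. The 2 points at the left of each panel are the femur LSD1WT replicate 2 libraries, which are lowest for Nfatc1, Fosl2 and Ppargc1b but within the range of other libraries for Fosl1.

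The genes whose log2 CPM correlated best with each member over the 12 libraries were found among tested genes with a mean of at least 5 CPM. For Nfatc1 they were Rilpl1, Lnx2 and Nos1ap (r of at least 0.9958). For Fosl2 they were Prdm1, Atp8b1 and Galm (at least 0.9926), of which Prdm1 encodes Blimp1, a repressor that acts in osteoclasts on inhibitors of NFATc1. For Ppargc1b they were C77080, Slc45a3 and Scin (at least 0.9976). The nearest genes of the remaining members were less alike. They were Sgtb, Surf6 and Tgfbr1 for Mitf (at least 0.9639), Clec2d, Casp4 and Gngt2 for Tfec (0.9676), and Ell2, Espl1 and Kcnn4 for Myc (0.9729). For Fosl1 they were Tuba4a, Nol12 and Rrp1b (0.9562), and for Jund they were Cdk5rap3, Acot2 and Pqlc3 (0.9255).

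The relatives of these factors did not all move with them. Of 4 NFAT relatives, Nfatc2, a calcium-dependent NFAT of lymphoid and myeloid cells, was at 17.5 and 12.8 CPM in the LSD1WT mandible and at 37.6 and 43.5 CPM in LSD1cKO, the reverse of Nfatc1. In the femur it was at 18.6 and 17.7 CPM in the LSD1WT replicate 1 libraries, 158 and 140.3 CPM in the replicate 2 libraries, and 41.9 to 58.1 CPM in LSD1cKO. With all 12 libraries its log2 fold change was 1.42 in the mandible, -0.80 in the ligated and -0.80 in the unligated femur, and no call was made. In the other 10 libraries Nfatc2 rose in LSD1cKO in each culture, by 1.46 (adjusted p = 0.00869), 1.52 (0.0157) and 1.37 (0.0482) on the log2 scale. Nfatc3 stayed between 73.7 and 128 CPM and Nfat5, which responds to osmotic stress, between 75.2 and 188 CPM in every library, and Nfatc4 was at most 0.711 CPM. None of these 3 was called in either setting.

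The MiT/TFE relatives Tfeb and Tfe3, regulators of lysosome genes, were at means of 30.5 and 65.4 CPM in the LSD1WT mandible and 30.7 and 71.2 CPM in LSD1cKO. Neither was called between genotypes in any culture in either setting. Tfeb was lower in the mandible than in the femur in LSD1cKO, by 0.81 without the 2 libraries (adjusted p = 0.0247), opposite to Mitf.

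Of the 7 AP-1 partners, the early response genes Fos, Jun and Junb were at mean CPM of 276, 111 and 201 in the LSD1WT mandible and 263, 117 and 241 in LSD1cKO, and none was called in the settings with and without the 2 libraries. Atf3, a stress-induced factor, was at 3.58 CPM in the LSD1WT and 6.02 CPM in the LSD1cKO mandible and at 12.7 to 133 CPM in the femur. With all 12 libraries the log2 fold change of Atf3 over the 3 cultures was -0.68 and was not called. It was 0.75 in the mandible, -1.24 in the ligated and -1.40 in the unligated femur. Without the 2 libraries the value over the 3 cultures was 0.85, the opposite sign. In that setting Atf3 was 2.29 lower in the LSD1cKO mandible than femur. Batf was at 2.07 to 5.75 CPM and Batf3 at 0.110 to 2.72 CPM. Batf3 was lower in the LSD1cKO mandible than femur by 2.16 in that setting (adjusted p = 0.0178). Fosb was at most 2.16 CPM and was left out by the filter when the 2 libraries were removed.

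The genes upstream and downstream of the members are described by counts, with the median log2 fold change of the list beside that of all tested genes. All lists were chosen with earlier results of these data known. In the mandible, where the median of all genes was 0.00, the osteoclast effector targets of NFATc1 and MITF were lower in 17 of 17 (median -0.72; these are the same 17 genes whose sum is given above as the osteoclast markers, so the list is no separate observation), and mitochondrial genes driven by PGC-1beta were lower in 10 of 10 (median -0.48). No gene of any list was called there with all 12 libraries. Among the effector targets, Calcr, the calcitonin receptor, had a log2 fold change of -1.16 and Itgb3, an integrin subunit, -1.07. Among the mitochondrial genes, Acadm and Ndufs1, for fatty acid oxidation and complex I, both had -0.53.

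Without the 2 libraries, 17 of 17 effector targets (median -0.79) and 10 of 10 mitochondrial genes (median -0.55) were lower in LSD1cKO over the 3 cultures. The median of all genes was 0.02. The 2 libraries stood apart by the sum of these same 17 genes, so leaving them out favours lower values in LSD1cKO. The effector targets are thus no independent result in this setting. The mitochondrial values also depend on it. With all 12 libraries 9 of these 10 genes were lower over the 3 cultures, with a median of -0.18 against -0.06 for all genes. In the ligated femur 5 were higher and 5 lower, and in the unligated femur 2 were higher and 8 lower. Without the 2 libraries, Calcr and Itgb3 fell by 1.41 and 1.28 over the 3 cultures, and Acadm and Ndufs1 by 0.60 and 0.65. Among genes listed as brakes on Nfatc1 with Prdm1, the repressors Irf8, Bcl6 and Id2 rose and Prdm1 fell in that setting. Irf8 rose by 1.17 (adjusted p = 0.00256). With all 12 libraries the value for Irf8 over the 3 cultures was -0.29 and no list gene was called. Irf8 was highest in the 2 libraries, at 232 and 173 CPM.

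**Figure D5:**
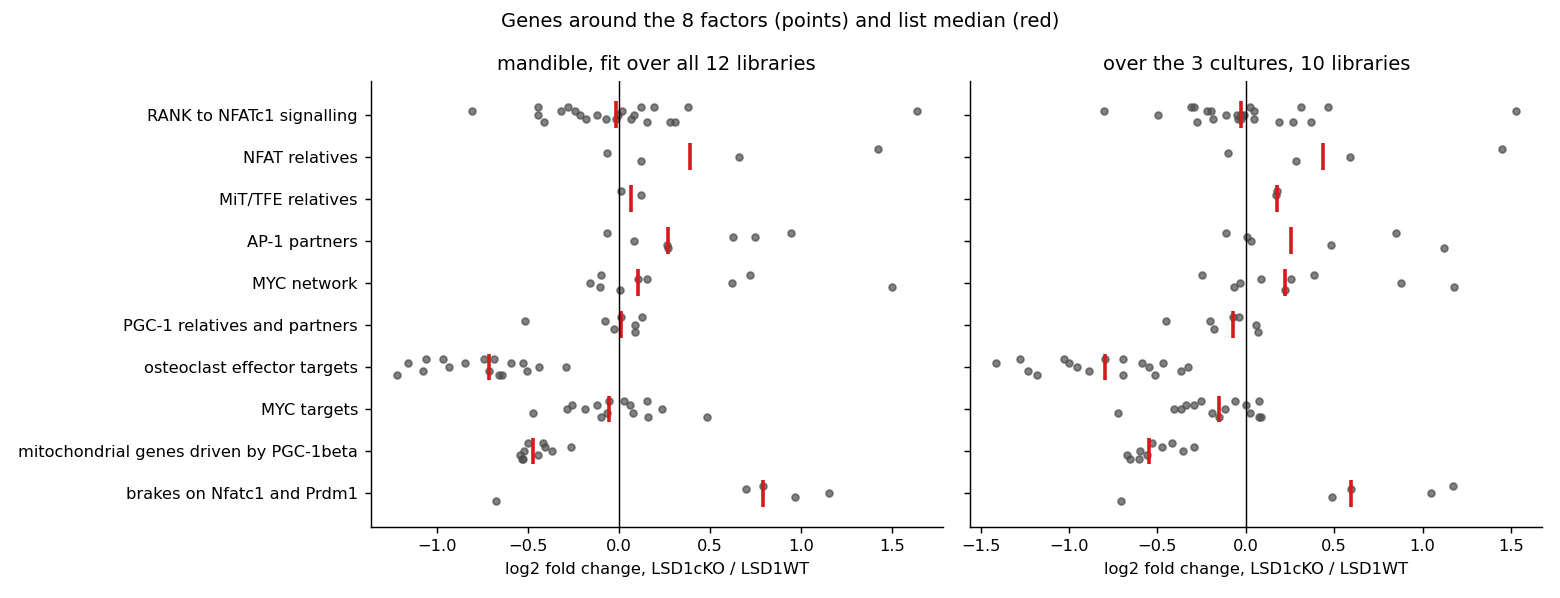
Log2 fold change of LSD1cKO over LSD1WT for the genes of 10 lists around the 8 factors (points, spread vertically for clarity) and the list median (red line), in the mandible from the fit over 12 libraries (left) and over the 3 cultures from 10 libraries (right). The effector targets, with medians of -0.72 and -0.79, and the mitochondrial genes, with -0.48 and -0.55, lie below 0 in every case.

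Signalling from RANK to NFATc1 was mixed. Of 23 tested genes, 10 were higher and 13 lower in the mandible (median -0.02), and none was called. Without the 2 libraries 9 were higher and 14 lower over the 3 cultures, with a median of -0.03 against 0.02 for all genes. Csf1r, the M-CSF receptor, had the largest change of the list over the 3 cultures with all 12 libraries, -0.62, and -0.20 without the 2, and was called in neither. Tec, a kinase of this pathway, had -0.43 and then -0.28 (adjusted p = 0.0369).

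MYC targets were divided between the genotypes. In the mandible, where Myc was higher in LSD1cKO, 7 of 15 MYC targets were higher and 8 lower (median -0.06), and none was called. Hspd1, a mitochondrial chaperone, had -0.48 and Nop56, for ribosome assembly, 0.16. Between sites all 15 were higher in the mandible than in the femur in both genotypes, with medians of 1.15 in LSD1WT and 1.28 in LSD1cKO against -0.03 and 0.00 for all genes, and none was called. In the other 10 libraries, all 15 were again higher in the LSD1cKO mandible than femur, with a median of 1.26 against -0.02 for all genes. Among them Hspd1 was higher by 1.26 and Nop56 by 1.40. Of 9 tested genes of the MYC network, Mycl had a log2 fold change of 0.94 and Mxd1, an antagonist of MYC, 0.57 over the 3 cultures with no call, and without the 2 libraries Mxd1 rose by 0.88 (adjusted p = 0.00326). Of 7 tested PGC-1 relatives and partners, Gabpa had -0.24 and Tfam, the mitochondrial DNA factor, 0.14, and neither was called in the genotype comparisons of either setting.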

How the data were processed

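PolyA RNA of 12 preosteoclast cultures was sequenced. The authors deposited raw counts of reads for each Ensembl gene, with no normalization. The submitters' processing notes name FastQC, HISAT2 2.1.0, featureCounts, edgeR and the build GRCm39. The strand setting is not given in the sources used here. Coordinates printed are those of RefSeq windows on GRCm38.p6, a different build, matched by symbol.

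Counts were filtered with filterByExpr, scaled by TMM and fitted with edgeR 4.0.16 (glmQLFit, glmQLFTest) in R 4.3.3, with 1 coefficient for each of 6 groups. A model with culture and genotype as terms gave the genotype difference over the 3 cultures. P-values are two-sided and adjusted by Benjamini-Hochberg over all tested genes, with a threshold of 0.05. SE is the log2 fold change divided by the square root of the F statistic. CPM use the scaled library sizes, and log2 CPM a prior count of 2. Lengths are unions of exons in GENCODE vM21. The fit of the 6 groups was run on simulated counts for the mandible genotype comparison only. The model over the 3 cultures was not.

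The 21 alternatives were DESeq2 1.42.0, RLE scaling, no filter beyond 1 read, the compared groups alone, each library left out, both femur LSD1WT replicate 2 libraries left out, mandible LSD1WT replicate 3 counted as femur, the mandible LSD1WT pair summed, a replicate block, and the mouse as a random block in limma 3.58.1. Groups came from the titles. The members and gene lists were chosen with earlier results of these data known. The named genes are the members, Kdm1a and Lyz2 as checks, all NFAT and MiT/TFE relatives and AP-1 partners, the 2 genes of each other list with the largest change over the 3 cultures (no list gene was called), and the 3 genes most correlated with each member (mean of at least 5 CPM, named symbols only). The result for 1 gene that this rule names is not reported here. For the site comparisons the labels pair libraries by mouse. Same-mouse libraries deviated from their group means with correlations of 0.0296 in LSD1WT and 0.0260 in LSD1cKO. Ligated and unligated LSD1WT femur libraries, which come from different mice, gave 0.780. With 2 libraries a group these correlations thus do not measure the pairing. The limma fit with the mouse as a random block estimated a within-mouse correlation of 0.519.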

Additional observations from a re-analysis of the deposited data

How the results depend on the processing

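Of the log2 values of the 8 genes recomputed under 21 alternatives, 1190 kept direction and call, 107 reversed and 35 passed the threshold newly. The number of the 8 genes called, 0 with all 12 libraries, rose to 7 in the mandible with the compared groups alone, and to 1 there and 4 over the 3 cultures without both femur LSD1WT replicate 2 libraries. Between sites it rose to 1 in both genotypes with DESeq2 (Fosl1), and in LSD1cKO to 1 with no filter, 6 with the compared groups alone and 4 without both libraries. Leaving out 1 library gave 0 to 3 calls between sites in LSD1WT and 0 to 2 in LSD1cKO, and 0 to 1 for the ligature in LSD1WT. The 3 came without ligated femur LSD1WT replicate 1, which leaves its pair to replicate 2. A lone library is assumed to vary like the other groups. Over the 3 cultures the adjusted p across alternatives ran from 0.0240 to 0.995 for Nfatc1, 0.0499 to 0.967 for Mitf, 0.0156 to 0.993 for Fosl2 and 0.0122 to 0.998 for Ppargc1b. The cause of these changes was not tested beyond leaving libraries out.

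Between genotypes the samples share only a number, not a mouse, so the replicate block pairs no animals there. The block called none of the 8 genes. With the replicate number as a block, the reversed log2 values were 0.32 for Nfatc1, 0.49 for Fosl2, 0.043 for Jund and 0.69 for Ppargc1b in the mandible, 0.45 for Nfatc1, 0.74 for Fosl2 and 1.28 for Ppargc1b in the ligated femur, 0.53 for Nfatc1, 0.69 for Fosl2 and 1.05 for Ppargc1b over the 3 cultures, 0.022 for Fosl2 between sites in LSD1cKO and 0.19 for Fosl2 and 0.27 for Ppargc1b for the ligature in LSD1cKO. With the mouse as a random block in limma, the reversed log2 values were 0.54 for Nfatc1, 0.78 for Fosl2 and 1.57 for Ppargc1b in the ligated femur, 0.50 for Nfatc1, 0.70 for Fosl2 and 0.95 for Ppargc1b over the 3 cultures, 0.058 for Jund between sites in LSD1WT, -0.052 for Ppargc1b for the ligature in LSD1WT and 0.077 for Ppargc1b for the ligature in LSD1cKO. Without both femur LSD1WT replicate 2 libraries, the reversed log2 values were -0.18 for Jund and -0.38 for Myc in the ligated femur, -0.54 for Nfatc1, -0.25 for Mitf, -0.16 for Tfec, -0.84 for Fosl2 and -0.74 for Ppargc1b in the unligated femur, -0.14 for Jund over the 3 cultures, -0.34 for Fosl2 and -0.10 for Myc between sites in LSD1WT and -0.35 for Tfec, 0.24 for Fosl1, 0.033 for Jund and 0.30 for Myc for the ligature in LSD1WT. With DESeq2, the reversed log2 values were 0.029 for Ppargc1b in the ligated femur and 0.0082 for Ppargc1b for the ligature in LSD1cKO. With RLE scaling, the reversed log2 values were 0.027 for Ppargc1b in the ligated femur and 0.0082 for Ppargc1b for the ligature in LSD1cKO. With no filter on low counts, the reversed log2 values were 0.023 for Ppargc1b in the ligated femur and 0.012 for Fosl2 between sites in LSD1cKO. With the compared groups alone, the reversed log2 values were 0.050 for Ppargc1b in the ligated femur. With the mandible LSD1WT pair summed, the reversed log2 values were 0.078 for Ppargc1b in the ligated femur. With mandible LSD1WT replicate 3 counted as femur, the reversed log2 values were -0.22 for Fosl1 over the 3 cultures and 1.01 for Fosl1 for the ligature in LSD1WT.

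With 1 library left out, log2 values that changed sign ranged as follows. In the ligated femur they ran from -1.10 to 2.28 for Nfatc1, -0.56 to 0.28 for Mitf, -1.05 to 2.72 for Fosl2, -0.27 to 0.70 for Jund, -0.47 to 1.61 for Myc and -0.98 to 5.14 for Ppargc1b. In the unligated femur they ran from -0.54 to 2.63 for Nfatc1, -0.25 to 0.59 for Mitf, -0.16 to 1.49 for Tfec, -0.84 to 3.64 for Fosl2, -0.17 to 0.62 for Jund and -0.74 to 4.02 for Ppargc1b. Over the 3 cultures they ran from -0.41 to 0.35 for Nfatc1, -0.49 to 0.28 for Fosl2, -0.067 to 0.19 for Jund and -0.46 to 0.45 for Ppargc1b. Between sites in LSD1WT they ran from -0.0084 to 3.33 for Nfatc1, -0.38 to 3.34 for Fosl2, -0.48 to 0.45 for Jund and -0.14 to 1.89 for Myc. Between sites in LSD1cKO they ran from -0.12 to 0.082 for Fosl2. For the ligature in LSD1WT they ran from -2.20 to 2.56 for Nfatc1, -0.11 to 0.81 for Mitf, -0.40 to 1.24 for Tfec, -2.73 to 3.61 for Fosl2, -1.22 to 0.23 for Fosl1, -0.60 to 0.32 for Jund, -1.61 to 0.40 for Myc and -4.94 to 3.93 for Ppargc1b. For the ligature in LSD1cKO they ran from -0.69 to 0.45 for Nfatc1, -0.20 to 0.41 for Mitf, -0.59 to 0.66 for Fosl2, -0.51 to 0.29 for Jund and -0.47 to 0.70 for Ppargc1b.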
